A study of Homo sapiens with 10 samples.

Results

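The genes of 10 luminal transcription factors were followed through maps of an enhancer mark and of HER2 in 2 breast cancer lines, SKBR3 and BT474, both long established from human tumours and both with an amplified ERBB2, the gene of HER2. The members were GATA3, FOXA1, TFAP2A, TFAP2B, TFAP2C, SPDEF, ELF3, ELF5, GRHL2 and TBX3, taken by name from the 20090 protein-coding genes of chromosomes 1 to 22 and X. Each was described over its gene body and 50 kb on each side, called its window here, in GRCh37 coordinates (the assembly also named hg19). The windows measured 106.5 kb at FOXA1 to 277 kb at GRHL2 and 1.37 Mb in all. Monomethylation of lysine 4 on histone H3 (H3K4me1) was mapped by ChIP-seq in asynchronous cells of each line, with 2 replicates per line, and the study's text describes the same cells as EGF-treated. HER2 was mapped by ChIP-exo, in which the DNA held by an antibody to HER2 is trimmed by an exonuclease, in cells of each line given vehicle (water) or epidermal growth factor (EGF, 100 ng/ml) for 3 h. Each of the 4 conditions gave 1 peak list, without a replicate. Each line is a single tumour-derived culture, so a difference between the lines is a difference between 2 cultures.

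These factors set up and maintain the identity of luminal cells, the inner layer of the mammary ducts. GATA3 and FOXA1 bind closed chromatin and open it for the oestrogen receptor, the AP-2 factors TFAP2A and TFAP2C bind many of the same enhancers, and AP-2 binding sites regulate ERBB2 itself. SPDEF, ELF3 and ELF5 are epithelial members of the ETS family, GRHL2 keeps genes of cell-cell adhesion active, and TBX3 is a T-box factor of the developing breast. H3K4me1 marks active and poised enhancers and usually dips at the start sites of active genes, where trimethylation takes its place.

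The H3K4me1 files listed islands, stretches enriched over input, with the number of reads in each. The 4 libraries held 15097245 to 18714089 reads in 70251 to 96293 islands. Levels are given in RPM per kb: RPM is the number of reads in islands per 1000000 reads in all islands of that library, and kb is the length of the window. Over all protein-coding windows the median level was 0.288 and 0.30 in the SKBR3 libraries and 0.353 and 0.348 in the BT474 libraries, and the median share of a window covered by islands was 11.5 to 12.8%. A window without an island is listed at 0, which says only that no stretch passed the caller's threshold. Reads outside islands and the reads of the input were not analysed here, so neither the enrichment below the threshold nor the DNA copy number was measured. The density of reads per kb of island over the 2 Mb on each side of a window, relative to the genome, is given for the members. It is built from reads in islands, so the strength of the mark and copy number cannot be told apart in it. Around GATA3 the density was 0.851 and 0.840 in SKBR3 and 0.878 and 0.898 in BT474. Around TFAP2B it was 0.845 and 0.832 against 0.963 and 0.949, and around SPDEF 0.926 and 0.927 against 0.925 and 0.914. It was higher in SKBR3 around TFAP2A, with 1.14 and 1.09 against 0.962 and 0.947, around ELF3, with 1.13 and 1.12 against 1.02 and 1.0, and around ELF5, with 0.988 and 0.986 against 0.913 and 0.905. The values of the other 4 members are given with their results.

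The cell line labels were checked against epithelial genes. The ERBB2 window held 13 and 12.8 RPM per kb in SKBR3 and 19.3 and 19.8 in BT474, and islands covered 97.2 to 100% of the gene body in the 4 libraries. KRT8, a luminal keratin, had 61.8 to 67.5% of its gene body in islands. Other luminal genes were covered unevenly. KRT18 had 17.1 and 0% of its gene body in islands in SKBR3 and 51.8 and 61.7% in BT474. EPCAM had 9.67 and 14.9% against 20.5 and 21.9%, and ERBB3 18.7 and 29.5% against 36.3 and 34.8%. KRT19 went the other way, with 71.0 and 62.5% against 45.4 and 28.4%. The window of CDH1, which encodes E-cadherin, held 0 islands in both SKBR3 libraries and 1.22 and 1.27 RPM per kb in the BT474 libraries. PGR, the gene of the progesterone receptor, stood at 0.136 and 0.135 in SKBR3 and 3.15 and 3.37 in BT474.

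**Figure D1:**
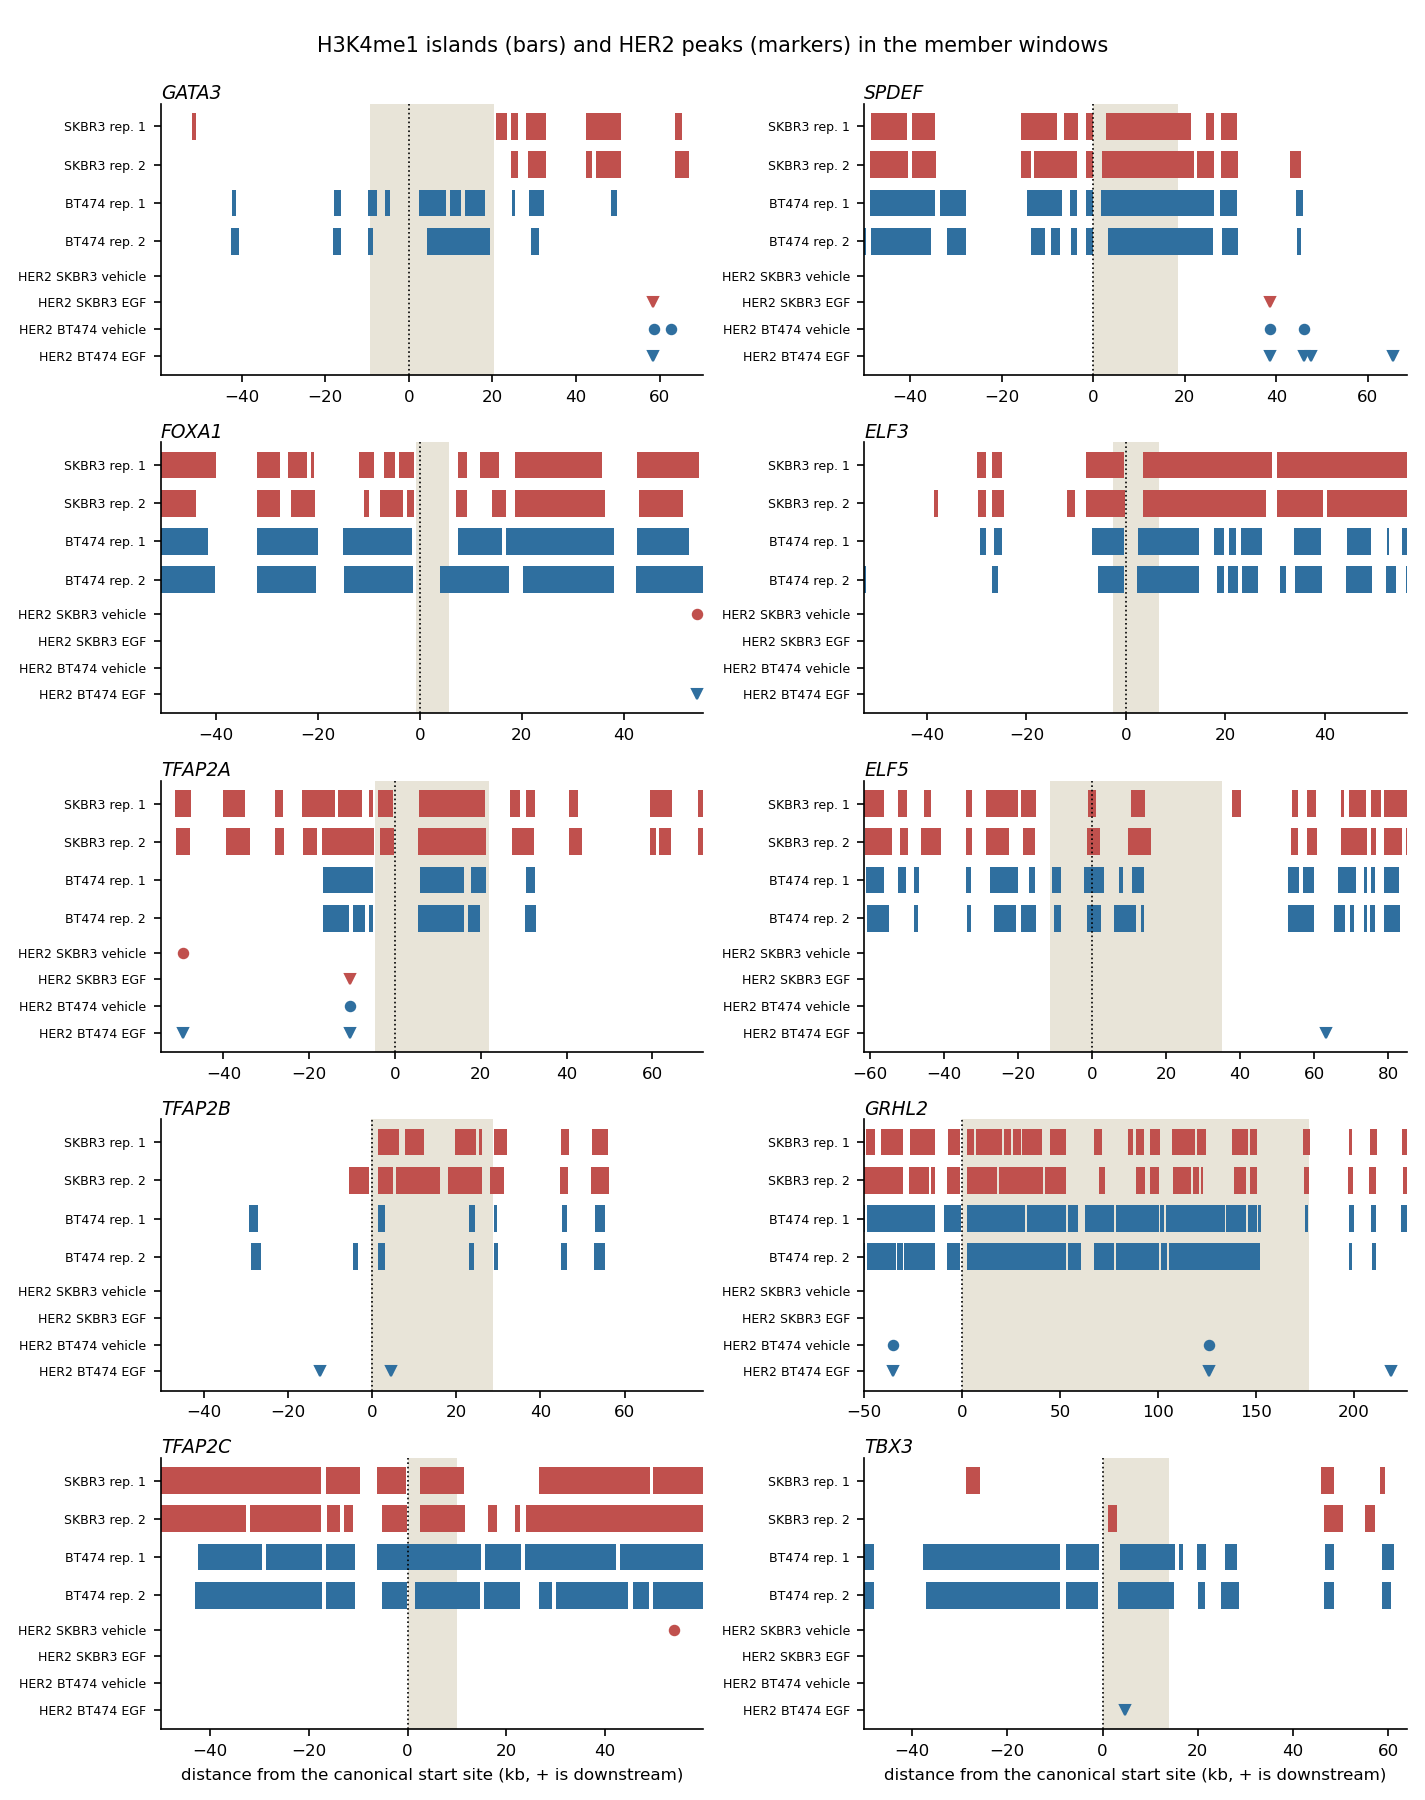
H3K4me1 islands (bars, 1 row per library) and HER2 peaks (circles for vehicle, triangles for EGF) by distance in kb from the canonical start site, with the gene body shaded and the start dotted; SKBR3 is red and BT474 blue. The gene bodies of GATA3 and, but for 1 island in replicate 2, TBX3 are bare in SKBR3, TFAP2A has islands in SKBR3 where BT474 has none, and most start sites fall in a gap between islands.

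The members differed widely in H3K4me1 level within each line. In SKBR3 the order of the levels, from the highest, was TFAP2C, ELF3, FOXA1, GRHL2, TFAP2A, SPDEF, ELF5, TFAP2B, GATA3 and TBX3. In BT474 it was TFAP2C, FOXA1, GRHL2, SPDEF, TBX3, ELF3, ELF5, TFAP2A, GATA3 and TFAP2B. The replicates of neighbours in either order did not overlap, although SPDEF and TBX3 in BT474 were close, with 1.94 to 1.99 RPM per kb against 1.92 in both libraries. TBX3 went from the last place in SKBR3 to the fifth in BT474, and ELF3 from the second place to the sixth. In SKBR3, 9 members lay above the median of all windows and TBX3 below it, and in BT474 TFAP2B was the member below it.

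**Figure D2:**
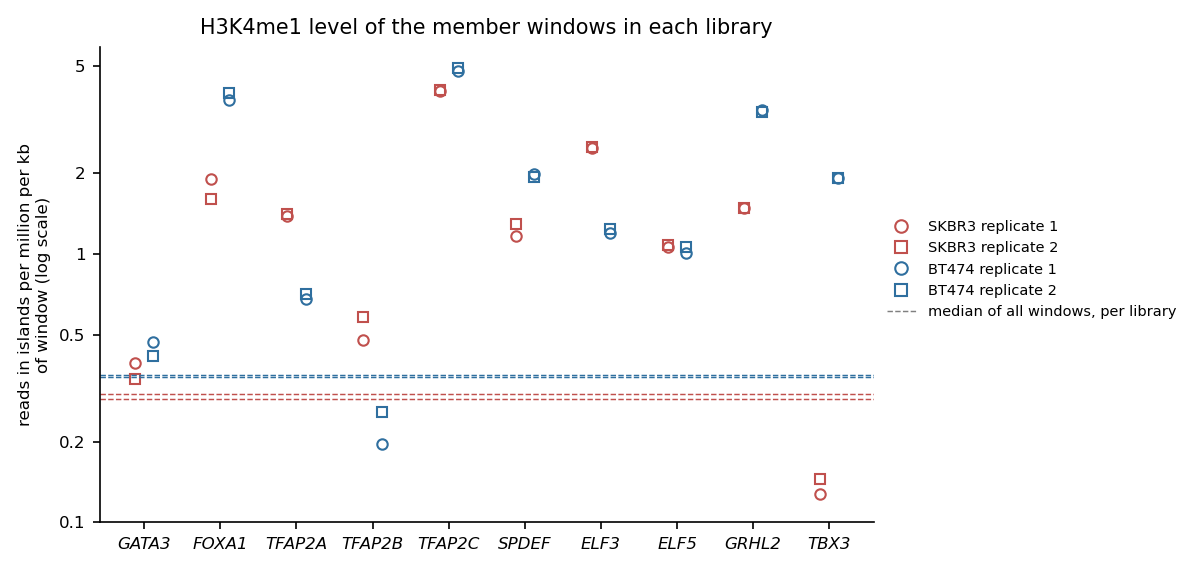
H3K4me1 level of each member window in RPM per kb (log axis) in the 4 libraries, with dashed lines at the median of all protein-coding windows in each library. The replicates sit close together, TBX3 spans 0.127 to 1.92, and TFAP2C is the highest in both lines.

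The comparison between the lines asked which of these windows carried more of the mark in one line. By edgeR's quasi-likelihood test over 18837 windows, 4 members were higher in SKBR3, against a background of 34.2% of all windows tested, and 4 were higher in BT474, against 38.2%. For all 10 genes the libraries of SKBR3 lay apart from those of BT474, which was also true of 84% of all windows, so the counts say little and the sizes matter more. The median absolute log2 fold change was 1.03 over the members and 0.91 over all windows. Nothing in the labels says whether the replicates were separate cultures, so the p-values measure only the spread between these samples, which may be technical. That spread exceeded counting error, with a chi-square per degree of freedom of 16.1 in SKBR3 and 8.01 in BT474 over windows that do not overlap.

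**Figure D3:**
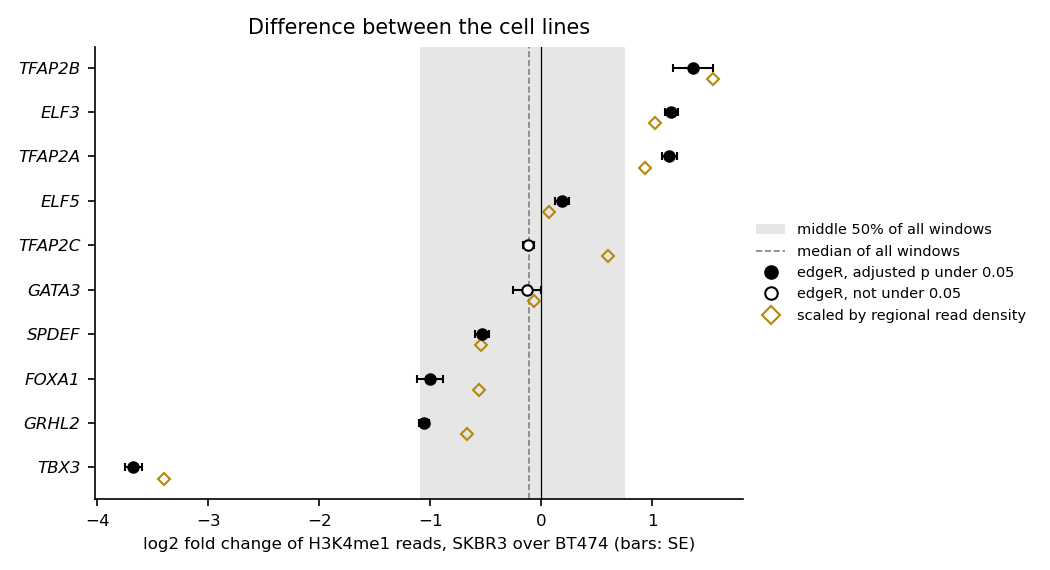
Log2 fold change of H3K4me1 reads, SKBR3 over BT474, for each member (black, bars are SE, filled where the edgeR adjusted p was under 0.05) and after scaling by the read density of the region (gold diamonds), over the middle 50% of all windows (gray). TBX3 lies far to the BT474 side at -3.67, and TFAP2C moves across 0 with the regional scaling.

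TBX3 (chr12:115108060-115121980, minus strand) showed the largest difference among the members. Its window held 0.127 and 0.145 RPM per kb in SKBR3 and 1.92 and 1.92 in BT474, a ratio of the means of 14.1. The log2 fold change, SKBR3 over BT474, was -3.67 (SE 0.08, edgeR adjusted p = 7.16e-05), larger in size than that of 89.7% of all windows. Islands covered 5.97 and 6.85% of the window in SKBR3 and 51.6 and 50.7% in BT474. Most of the BT474 reads lay upstream, in an island that ran from 37.6 to 9.0 kb before the start in replicate 1 and from 37 to 9.0 kb in replicate 2, with 113.6 and 112.9 RPM. SKBR3 replicate 1 had 1 short island of 2.8 kb inside that stretch, with 4.99 RPM, and replicate 2 had none there. In SKBR3 the gene body was free of islands in replicate 1 and covered to 12.9% in replicate 2, compared with 74.3 and 77.2% in BT474. With the gene body alone, the difference was -4.15 but did not pass the test (edgeR adjusted p = 0.0811), and with the window scaled by regional density, which was 0.776 and 0.797 in SKBR3 and 0.953 and 0.951 in BT474, it was -3.40.

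GATA3 (chr10:8087341-8117161, plus strand), a zinc finger factor of luminal differentiation, had similar levels over its window and a different arrangement of islands within it. The window held 0.391 and 0.343 RPM per kb in SKBR3 and 0.470 and 0.418 in BT474, close to the middle of all windows, and the difference of -0.13 (SE 0.13) did not pass the test (edgeR adjusted p = 0.397). The gene body was listed with 0 islands in both SKBR3 libraries, whereas islands covered 55.9 and 53.2% of it in BT474, with 1.28 and 1.27 RPM per kb. With the gene body alone in place of the window, GATA3 passed the test (edgeR adjusted p = 0.0016), with the SKBR3 libraries both at 0. All SKBR3 islands of the window lay downstream of the gene but for 1 of 3.01 RPM in replicate 1, 50.9 kb upstream of the start. In the downstream part, 42.4 to 50.7 kb beyond the start, replicate 1 had an island of 21.9 RPM and replicate 2 had 2 islands of 4.38 and 15.2. At 100 kb on each side the sign turned, to 0.20.

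FOXA1 (chr14:38058757-38065264, minus strand), the forkhead factor that opens chromatin for the oestrogen receptor, had 1.90 and 1.60 RPM per kb in SKBR3 and 3.75 and 3.99 in BT474. The log2 fold change was -1.0 (SE 0.12, edgeR adjusted p = 0.0019). Both lines were far above the median of all windows, at percentiles 94.6 and 96.7 in SKBR3 and 99.3 in both BT474 libraries. The gene body of 6.51 kb was without islands in 3 of the 4 libraries, and the mark lay on its flanks in both lines. The density of reads around the window relative to the genome was 0.888 and 0.838 in SKBR3 and 1.17 and 1.19 in BT474, and with regional scaling the difference was -0.56 (edgeR adjusted p = 0.0063). The window also holds the start of TTC6, and its far islands lie in MIPOL1.

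Of the AP-2 genes, TFAP2A and TFAP2B carried more H3K4me1 in SKBR3. The TFAP2A window (gene at chr6:10393419-10419892, minus strand) held 1.39 and 1.41 RPM per kb in SKBR3 and 0.679 and 0.709 in BT474, a log2 fold change of 1.16 (SE 0.07, edgeR adjusted p = 0.00026). TFAP2B (chr6:50786436-50815332, plus strand), a close paralog, had 0.476 and 0.583 in SKBR3 and 0.197 and 0.257 in BT474. Its log2 fold change was 1.37 (SE 0.18, edgeR adjusted p = 0.0025). In the gene body of TFAP2B, islands covered 52.6 and 79.4% in SKBR3 and 10.4 and 9.69% in BT474, so the lines were well apart although the SKBR3 replicates differed from each other.

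TFAP2C (chr20:55204362-55214339, plus strand), the third AP-2 gene, was the most heavily marked member in every library. It held 4.03 and 4.08 RPM per kb in SKBR3 and 4.78 and 4.92 in BT474, at percentiles 99.4 to 99.5 of all windows. The log2 fold change of -0.11 (SE 0.05) did not pass the test (edgeR adjusted p = 0.0832). This result depended on the scaling, with calls in both directions. Scaled by total island reads it was higher in BT474 (-0.26, edgeR adjusted p = 0.0041), as it was by DESeq2 (-0.11, adjusted p = 0.0451). The density of reads around the window was 1.4 and 1.39 times that of the genome in SKBR3 and 2.28 and 2.32 times in BT474. Relative to its region TFAP2C was higher in SKBR3, by 0.61 (edgeR adjusted p = 0.00054). By contrast, the gene body alone was higher in BT474, by -0.86 (edgeR adjusted p = 0.0031), with 3.33 and 3.43 RPM per kb in SKBR3 against 7.03 and 6.67 in BT474.

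The 3 epithelial ETS genes differed in direction. ELF3 (chr1:201977073-201986311, plus strand) had 2.48 and 2.50 RPM per kb in SKBR3 and 1.20 and 1.24 in BT474, with a log2 fold change of 1.17 (SE 0.06, edgeR adjusted p = 0.00022). That difference lay outside the gene: islands covered 58.9 and 61.0% of the gene body in SKBR3 and 69.7 and 71.9% in BT474, and with the gene body alone the reads did not pass the test (0.35, edgeR adjusted p = 0.0903). In SKBR3 an island of 26.0 kb in replicate 1 and 24.8 kb in replicate 2 began 3.49 kb after the ELF3 start, inside the gene, and ran on past its end. BT474 had islands of 12.2 and 12.4 kb that began 2.49 and 2.29 kb after the start and also ran past the gene end. Shorter BT474 islands followed in the same stretch, between 17.7 and 27.5 kb in replicate 1 and between 18.3 and 26.7 kb in replicate 2. The window also holds the start of RNPEP. SPDEF (chr6:34505579-34524110, minus strand) went the other way, with 1.16 and 1.30 RPM per kb in SKBR3, 1.99 and 1.94 in BT474 and a log2 fold change of -0.53 (SE 0.06, edgeR adjusted p = 0.0018). Islands covered 82.1 to 90.8% of the SPDEF gene body in the 4 libraries. ELF5 (chr11:34500338-34546740, minus strand), a factor of the milk-producing alveolar lineage, had 1.06 and 1.08 RPM per kb in SKBR3 and 1.01 and 1.06 in BT474. Its log2 fold change of 0.19 (SE 0.06) passed narrowly (edgeR adjusted p = 0.0489) and was lost when any 1 library was left out, with adjusted p from 0.0639 to 0.244. It was lost as well when scaled by total island reads (0.048, edgeR adjusted p = 0.507) or by regional density (0.072, edgeR adjusted p = 0.370), and without the filter on low windows (edgeR adjusted p = 0.0537). The ELF5 window includes the start of CAT, the gene of catalase.

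GRHL2 (chr8:102504667-102681954, plus strand), a grainyhead factor, had the longest gene body of the members. The level was 1.48 RPM per kb in both SKBR3 libraries and 3.42 and 3.37 in the BT474 libraries, with a log2 fold change of -1.05 (SE 0.04, edgeR adjusted p = 0.00012). In SKBR3 the window was broken into 23 and 19 islands, the longest of 13.6 and 22.6 kb, whereas in BT474 there were 17 and 13, the longest of 34.8 and 50.6 kb. The gene body was covered to 50.4 and 49.6% in SKBR3 and 79.6 and 78.5% in BT474. Around the window the density of reads relative to the genome was 0.871 and 0.860 in SKBR3 and 1.16 and 1.11 in BT474, and with regional scaling the difference was -0.67 (edgeR adjusted p = 0.00041).

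Island cover, which depends less on the number of reads, gave the same directions for the larger differences. By limma on the arcsine square root of the share of bases, 3 members were higher in SKBR3, against a background of 29.2% of 18846 windows, and 3 in BT474, against 33.6%. Mean window cover was 58.8% in SKBR3 and 36.9% in BT474 for ELF3, 46.0 and 21.3% for TFAP2A, and 23.4 and 8.15% for TFAP2B. On the other side it was 48.1 and 67.8% for GRHL2, 55.0 and 72.8% for FOXA1, and 6.41 and 51.2% for TBX3. GATA3, TFAP2C, SPDEF and ELF5 did not pass (limma adjusted p from 0.118 for GATA3 to 0.453 for TFAP2C). SPDEF thus passed on reads and not on cover, with 41.2 and 47.2% in SKBR3 and 50.8 and 44.3% in BT474. The calls for FOXA1 and TFAP2B were lost when BT474 replicate 1 was left out (limma adjusted p = 0.0729 and 0.124) or replicate 2 (0.113 and 0.0993), and that for FOXA1 also without SKBR3 replicate 2 (0.0621).

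**Figure D4:**
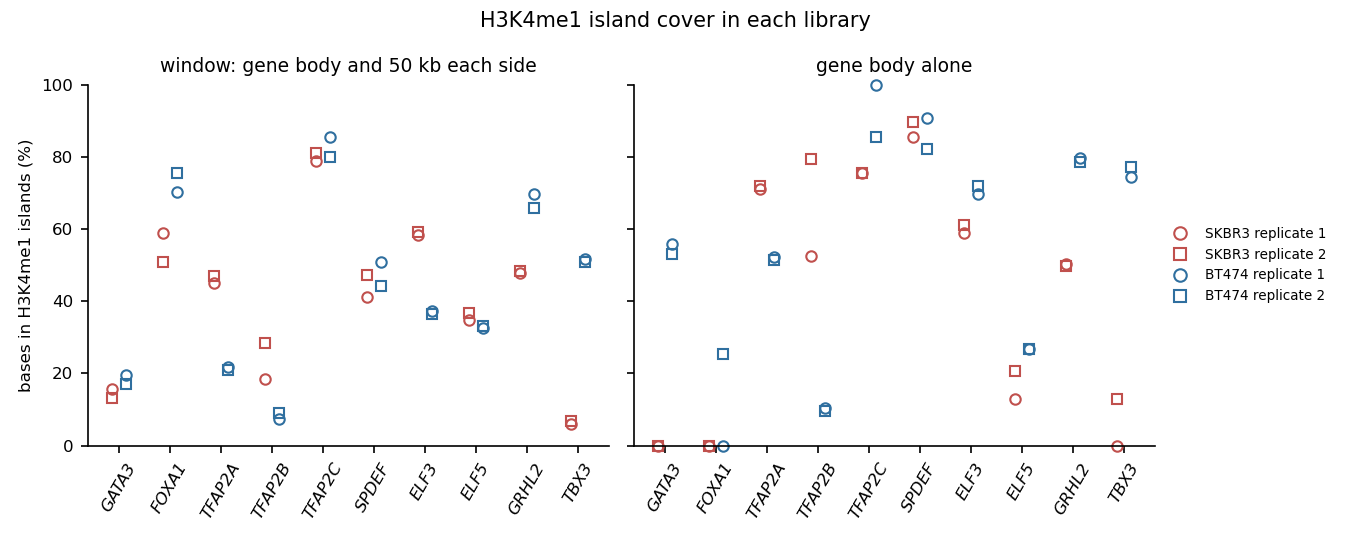
Percent of bases in H3K4me1 islands for each member in the 4 libraries, over the window (left) and over the gene body alone (right). GATA3 shows little difference over the window and 0 against 53.2 to 55.9% over the gene body, and TBX3 is apart in both panels.

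At the start sites themselves the mark was mostly absent. Taking the start of the canonical transcript, ELF5 was the member whose start lay in an island in all 4 libraries, and TFAP2C joined it in BT474 replicate 1. Over all genes the share was 10.5 and 12.4% in SKBR3 and 15.9 and 14.8% in BT474. Islands began close upstream of several starts: 95 bp away at SPDEF in all 4 libraries, 115 to 315 bp at ELF3, 0.667 to 1.27 kb at GRHL2 and 1.15 to 1.55 kb at FOXA1. At TFAP2A the nearest upstream island was 0.494 and 0.294 kb away in SKBR3 and 5.09 kb away in both BT474 libraries. At TBX3 the gap around the start was 71.6 and 76.4 kb wide in SKBR3 and 4.40 and 4.20 kb in BT474. In SKBR3 replicate 2 an island lay 1.18 kb downstream of the TBX3 start, and the nearest upstream was 75.2 kb away. GATA3 likewise had gaps of 71.8 and 105.2 kb in SKBR3 and 7.0 and 12.8 kb in BT474. Which members had a marked start depended on the transcript. With the outermost annotated start, ELF3 lay in an island in all 4 libraries and ELF5 in none, GATA3 lay in one in both BT474 libraries and in neither of SKBR3, and TFAP2C again in BT474 replicate 1. That made 1 of 10 members in each SKBR3 library and 3 and 2 in the BT474 libraries. For comparison, the outermost start lay in an island for 13.03 and 15.06% of all genes in SKBR3 and 18.67 and 17.18% in BT474.

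Regions marked in both replicates of one line and in no island of the other were then counted. Regions only in SKBR3 numbered 17 and fell in 4 members, compared with 52.9% of all windows holding at least 1. Regions only in BT474 numbered 21 and fell in 7 members, compared with 69.4% of all windows. TFAP2C and ELF3 had none of either kind: each stretch of at least 200 bp marked in both replicates of a line touched an island of the other line. TFAP2A held 10 of the 17 SKBR3 regions and none of BT474. They spanned 25.4 kb, or 20.1% of the window, against a median of 0.645% over all windows, and lay on both sides of the gene. The longest was an interval of 4.4 kb in the non-coding gene MIR5689HG (chr6:10450201-10454600), 34.9 kb upstream of the start, with 14.0 and 13 RPM. Another, of 3.0 kb (chr6:10415801-10418800), ended 0.494 kb upstream of the canonical start, with its midpoint in the non-coding part of a TFAP2A exon.

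TBX3 held 5 of the 21 BT474 regions and none of SKBR3. They spanned 24.0 kb, or 21.0% of the window, against a median of 1.39% over all windows. The longest region of any member, 11.4 kb at chr12:115107001-115118400, covered much of the TBX3 gene and held 40.7 and 43.6 RPM. A second, of 6.6 kb at chr12:115123001-115129600, lay 1.02 kb upstream of the start in the antisense gene TBX3-AS1, with 29.6 and 29.1 RPM. GATA3 had 6 BT474 regions over 16.0 kb, of which 4 had their midpoint in its introns, and 2 SKBR3 regions of 1.6 kb each at 42.4 and 63.8 kb downstream of the start. The BT474 region at chr10:8086801-8088200 crossed the outermost GATA3 start. The 4 regions of GRHL2 were all BT474-only with their midpoints in its introns, the longest of 5.2 kb at chr8:102558801-102564000. In TFAP2B, 3 SKBR3 regions lay within the gene and 1 BT474 region lay 27.0 kb upstream. ELF5 had 2 SKBR3 and 3 BT474 regions, SPDEF 1 BT474 region of 4.2 kb and FOXA1 1 of 0.6 kb.

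HER2 peaks in the windows numbered 28, at 17 distinct sites, and no member had a peak over its canonical start. The SKBR3 vehicle list held 3 peaks in 3 members (background 12.2% of all windows with a peak) and the SKBR3 EGF list 3 in 3 members (13%). The BT474 vehicle list held 7 in 4 members (35.5%) and the BT474 EGF list 15 in 8 members (72.7%). Per Mb of window this was 2.19, 2.19, 5.12 and 11 peaks, and over all windows it was 0.904, 0.929, 3.09 and 10.9. With 1 list per condition there is no test of these differences, and the depth behind the peaks is unknown. ELF3 had no peak in any list. The scores have no stated scale and are placed here as percentiles within their own list.

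**Figure D5:**
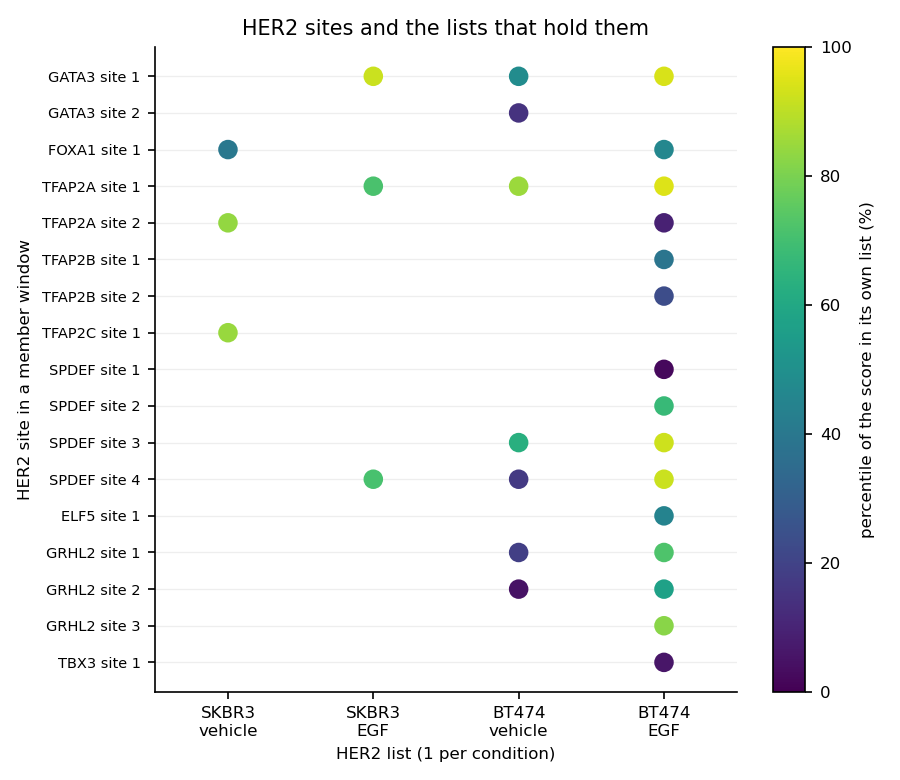
The 17 HER2 sites of the member windows (rows) and the 4 lists that hold them (columns), with the colour giving the percentile of the peak's score in its own list. No site is in all 4 lists, and 3 sites are in every list but that of SKBR3 vehicle.

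The 3 sites found in 3 lists were missing from SKBR3 vehicle in each case, and they accounted for all 3 peaks of SKBR3 EGF. One lay 10.4 to 10.5 kb upstream of the TFAP2A start (chr6:10425588-10425949), in an intron of a non-coding gene, at percentile 71.2 of SKBR3 EGF, 84.8 of BT474 vehicle and 94.7 of BT474 EGF. The second was intergenic, 58.5 to 58.6 kb downstream of the GATA3 start (chr10:8154895-8155494), at percentiles 92.0, 48.2 and 94.1 of the same lists. The 287 bp shared by the peaks of this GATA3 site consist largely of short repeats, mostly of the letters CA. How well reads map there was not tested. The last lay 38.6 kb downstream of the SPDEF start in an intron of PACSIN1 (chr6:34485368-34485704), at percentiles 71.0, 16.9 and 91.9. SPDEF had 4 sites, all in PACSIN1 introns, the most of any member, and 2 of them were in BT474 EGF alone.

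The sequences under 3 of the sites are shown because they hold CGTNTGC, a short core found at many HER2 peaks of these lists, here in capitals. The study gives this core, as CGT_TGC, for its de novo motif. Each sequence is the stretch shared by the overlapping peaks of a site, from the plus strand of GRCh37. The TFAP2A site (chr6:10425625-10425914, 290 bp, in 3 lists) has the core at bases 31 to 37 of the stretch, a GATA3 site found in BT474 vehicle alone (chr10:8159186-8159385, 200 bp) has 2 copies at bases 10 to 16 and 99 to 105, and an SPDEF site in both BT474 lists (chr6:34478052-34478292, 241 bp) has 1 at bases 156 to 162.
TFAP2A site 1: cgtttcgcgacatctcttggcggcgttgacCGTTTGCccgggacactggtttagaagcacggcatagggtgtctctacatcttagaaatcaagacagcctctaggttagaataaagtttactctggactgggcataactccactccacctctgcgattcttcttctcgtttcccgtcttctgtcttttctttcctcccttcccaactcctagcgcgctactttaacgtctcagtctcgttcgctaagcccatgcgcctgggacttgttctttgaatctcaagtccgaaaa
GATA3 site 2: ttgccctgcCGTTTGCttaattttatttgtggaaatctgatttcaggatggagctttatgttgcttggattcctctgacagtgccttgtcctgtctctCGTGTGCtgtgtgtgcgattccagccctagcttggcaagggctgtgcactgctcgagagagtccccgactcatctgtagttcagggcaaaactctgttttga
SPDEF site 3: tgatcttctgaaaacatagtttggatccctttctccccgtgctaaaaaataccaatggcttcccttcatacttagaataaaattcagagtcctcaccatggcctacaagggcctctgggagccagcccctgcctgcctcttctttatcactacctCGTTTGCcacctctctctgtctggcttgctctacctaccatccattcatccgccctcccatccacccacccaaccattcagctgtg

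Searched on both strands, the core was present at 3 of the 17 sites. Over the whole lists it was present in 8.44% of SKBR3 vehicle peaks, 15.9% of SKBR3 EGF, 19.4% of BT474 vehicle and 11.8% of BT474 EGF, against 2.37 to 3.15% of windows of the same length 1 kb to either side. The letters TACGAGAT, the end of a sequencing primer, were present at 1 of the 17 sites, the one inside GRHL2, and in 0.809, 3.33, 4.71 and 2.56% of the peaks of the 4 lists, against at most 0.075% of the windows 1 kb away. The core and the primer end share letters. With A at its open base, the core reads GCATACG on the other strand and ends in TACG, which opens TACGAGAT. The copies printed above have T or G at that base. The site with the primer end, inside GRHL2, held 0 copies of the core. Whether the primer accounts for the core was not tested. Short sequences bound by the members' own families were searched for as well. AGATAA, the GATA sequence, was at 2 of the 17 sites and AACCNGTT, the grainyhead sequence, at 1. TGTTTAC (forkhead), GCCNNNGGC (AP-2), CCGGAA (ETS) and AGGTGTGA (T-box) were at none, which says only that these letters are not in these stretches. In all peaks of a list these 6 were present in 17.8 to 22.1% (AGATAA), 0.794 to 1.49% (AACCNGTT), 2.5 to 3.66% (TGTTTAC), 2.2 to 3.12% (GCCNNNGGC), 1.39 to 1.62% (CCGGAA) and 1.04 to 1.33% (AGGTGTGA). In the windows 1 kb away the shares, in the same order, were 15.5 to 18.4%, 1.62 to 1.66%, 3.39 to 3.98%, 4.08 to 5.22%, 1.52 to 1.98% and 1.68 to 2.6%.

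The other sites lay far from the starts or in introns. FOXA1 had 1 site, 54.4 kb downstream of the start in an intron of MIPOL1 (chr14:38009984-38010197), listed in SKBR3 vehicle and BT474 EGF. TFAP2A had another, 49.4 kb upstream (chr6:10464595-10464837), in those same lists. TFAP2C had 1, in SKBR3 vehicle, 54.1 kb downstream (chr20:55258278-55258554). In BT474 EGF alone, TFAP2B had 2 sites, ELF5 had 1 in an intron of CAT, and TBX3 had 1 within its gene (chr12:115117131-115117334), 4.75 kb downstream of the start and at percentile 5.52 of the score. GRHL2 had 1 site 35.5 kb upstream and 1 in its intron, both in vehicle and EGF of BT474, and 1 in BT474 EGF in an intron of NCALD.

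Overlap of the members' HER2 peaks with H3K4me1 islands of the same line was counted for islands of either replicate. It held for 3 of 3 peaks in SKBR3 vehicle, 1 of 3 in SKBR3 EGF, 3 of 7 in BT474 vehicle and 5 of 15 in BT474 EGF. In the whole lists the shares were 18.8, 17.4, 15.4 and 14.0%. Those shares are not a matched background. Islands covered a median of 45.1% of the member windows in SKBR3 and 42.2% in BT474, against 11.9 and 12.5% of all windows. With islands of both replicates required, the members' counts were 2, 1, 2 and 3. The TFAP2A site 10.4 kb upstream lay in islands of both lines, in 2 SKBR3 libraries and 1 of BT474. The TBX3 and intronic GRHL2 sites lay in islands of both BT474 libraries and of no SKBR3 library, and the TBX3 site fell inside the BT474-only region of 11.4 kb. The TFAP2A site 49.4 kb upstream lay in islands of both SKBR3 libraries and of neither BT474 library, although it was also listed in BT474 EGF. None of the GATA3, TFAP2B, SPDEF or ELF5 peaks lay in an island of its own line. One of the TFAP2B sites, in BT474 EGF, lay in islands of both SKBR3 libraries.

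Related genes were read by the same fit. Of 15 luminal partner factors, 7 were higher in SKBR3, 6 in BT474 and 2 did not pass, with a median log2 fold change of 0.13 against -0.11 over all windows. PGR showed the largest difference at -4.45, BHLHE40, a repressor of the clock and stress response, had 2.42 and TRPS1, a GATA-type repressor of luminal cells, had 2.15, with 10.3 and 9.24 RPM per kb in SKBR3 against 2.38 and 2.51 in BT474. With regional scaling TRPS1 dropped to 0.79. ESR1, the oestrogen receptor gene, did not pass (-0.16, edgeR adjusted p = 0.0946), but was higher in BT474 when scaled by total island reads (-0.30, edgeR adjusted p = 0.0087) or by regional density (-0.54, edgeR adjusted p = 0.0016).

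Of 18 paralogs of the members, 5 were higher in SKBR3, 7 in BT474 and 6 did not pass. GATA4 was at -3.66, TBX4 at -3.24 and ELF4 at 3.28, each with at most 0.428 RPM per kb in the line where it was higher. The TBX4 gene body had 0% in islands in every library, so its reads lay in the flanks of the window. The paralogs' median window cover was 15.9% in SKBR3 and 18.0% in BT474, compared with 45.1 and 42.2% for the members.

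Of 13 basal and mesenchymal factors, 6 were higher in SKBR3 and 7 in BT474. ZEB1, SNAI2 and PRRX1, regulators of the mesenchymal state, were listed at 0 in both SKBR3 libraries and at low levels in BT474, of 0.163 and 0.199, 0.0616 and 0.0719, and 0.0242 and 0.0352 RPM per kb. On the other side EN1, a homeobox factor, was higher in SKBR3 by 2.34, ZEB2, a paralog of ZEB1, by 1.44, TP63, the p63 factor of basal cells, by 0.38 and SNAI1, a paralog of SNAI2, by 0.32, genes named after their values were seen. The EN1 gene body had 0% in islands in every library, so its reads lay in the flanks of the window. The list's median window cover was 12.4% in SKBR3 and 7.07% in BT474, whereas its median gene body cover was 5.48 and 7.71%.

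Of the 11 markers of other cell types found in the annotation, 6 were higher in SKBR3 and 2 in BT474, with a median window cover of 15.8 and 9.54%. PDGFRB, a receptor of stromal cells, had 1.68 and 2.08 RPM per kb in SKBR3 and 0.134 and 0.141 in BT474, and TAL1, a blood cell factor, 0.549 and 0.609 against 0.0627 and 0.0326. Islands covered 0% of the TAL1 gene body in every library, so its reads lay in the flanks of the window. COL3A1, a fibroblast collagen, was listed at 0 in SKBR3 and at 0.290 and 0.276 in BT474. These levels come from cultured lines, and whether the genes were expressed was not tested. Of 7 luminal epithelial markers, 2 were higher in SKBR3, 3 in BT474 and 2 did not pass. KRT19 stood at 4.70 and 5.28 in SKBR3 and 1.57 and 1.58 in BT474, and EPCAM at 0.744 and 0.725 against 0.560 and 0.592, a difference in log2 of 0.49 that turned with the gene body alone.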

How the data were processed

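Groups follow the antibody, line and treatment that each label names. The H3K4me1 files hold the count of reads in each island, as deposited by the authors without scaling for depth. The HER2 files hold a score for each peak as given by the authors, in steps of 0.5. Per the labels, the authors used BWA 0.5.9, MACS 1.4.1 and SICER 1.1, whereas the study's methods name bowtie2 and MACS2. The 2 input samples were not analysed here.

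The members and gene lists were chosen with earlier results of these data known. From each list, up to 3 genes past the threshold with the largest change were named, and every HER2 site in a member window. ESR1, KRT8, KRT18, ERBB2 and ERBB3 were checks chosen after their values were seen. Genes and starts came from GENCODE release 44 mapped to GRCh37. Reads of an island cut by a window edge were shared out by bases and rounded. Windows were compared in edgeR 4.0.16 with TMM scaling and filtering of low windows, and cover in limma 3.58.1, with Benjamini-Hochberg adjustment over all windows tested and a threshold of 0.05. DESeq2 1.42.0 was an alternative, 1 of 52 planned, and 3 more were chosen after seeing the data. Regional scaling divided by reads per kb of island over 2 Mb on each side. The fits were tested on simulated counts. Same-numbered replicates of the lines did not deviate together (correlation -0.028).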

Additional observations from a re-analysis of the deposited data

Results flagged for a closer look

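At 2 HER2 sites the lists moved in opposite directions with EGF in the lines. FOXA1 site 1, in an intron of MIPOL1, was listed in vehicle and not in EGF of SKBR3, scored 32.5, and in EGF and not in vehicle of BT474, scored 52.5. TFAP2A site 2, 49.4 kb upstream of the start, did likewise, scored 53 in SKBR3 and 25 in BT474. The scores have no stated scale, so they are not compared between lists. Within their own lists the FOXA1 peaks stood at percentiles 40.0 in SKBR3 and 46.3 in BT474, and the TFAP2A peaks at 83.8 and 9.15. The BT474 lists held 8559 peaks in vehicle and 29326 in EGF, and the SKBR3 lists 2596 and 2520. There was 1 list per condition, and the opposite directions were not tested.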

How the results depend on the processing

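With all 4 libraries, the number of members passing the test stayed between 6 and 9 on reads and between 6 and 8 on cover. Fewer passed on cover when either BT474 library or SKBR3 replicate 2 was left out. FOXA1 was not tested with the gene body alone, the setting with the fewest members passing on reads. Over all windows, 9434 of 15496 passed on reads with the gene body alone and 15045 of 19356 at 100 kb. On cover these were 7629 of 15607 and 13257 of 19361. With the replicate block, which pairs samples that share only a number, 7 members passed on reads (ELF5 was lost, as it was with the crossed pairing) and 6 on cover, and 11912 windows passed in place of 13633. Windows of 10 and 100 kb each side changed the SKBR3-only regions from 17 to 5 and 32, and 100 kb changed the BT474-only regions from 21 to 34. HER2 peaks went from 28 to 4 in the gene bodies, 7 at 10 kb, 41 at 100 kb and 15 with scores at or above the list median. On cover, 11826 windows passed with all libraries, and 9620, 9363, 4818 and 5053 when SKBR3 replicate 1, SKBR3 replicate 2, BT474 replicate 1 or BT474 replicate 2 was left out, with a lone sample assumed to vary like the other line. Scaling by total island reads moved the median of all windows from -0.11 to -0.26.

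Signs turned on reads for GATA3 (0.20 at 100 kb), TFAP2C (0.61 with regional scaling, 0.15 with whole islands), ELF5 (-0.10 for the gene body, -0.0081 at 10 kb), EPCAM (-0.70 and -0.085 there) and PRRX1 (0.25 at 100 kb). On cover, in arcsine units, they turned for GATA3 (0.020 at 100 kb), TFAP2C (0.065 at 100 kb, and from -0.074 to 0.00058 over the fits that leave out 1 BT474 library, turning without replicate 1), SPDEF (0.013 for the gene body, 0.0032 at 10 kb), ELF3 (-0.11 for the gene body) and ELF5 (-0.12 for the gene body, -0.053 at 10 kb). The gene body and 10 kb settings leave out the flanking islands by construction. The cause of the differences in regional density was not tested. The files bound what can be seen: enrichment below the island threshold is listed at 0, HER2 depth is unknown, and no input corrects for copy number.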
